A study of Mus musculus with 15 samples.

Results

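The AQA form of Twist1 was compared with empty vector in Myc-CaP cells, an established mouse prostate cancer line that arose in an animal with a prostate-expressed Myc transgene. The 3 arrays labelled AQA (A, B and C) and the 3 arrays labelled VEC (A, B and C) make up 6 of the 15 arrays of the study. The other 9 arrays hold cells with wild-type Twist1 (WT), the DQD form or the F191G form, and they enter only the shared estimate of spread and the direct tests of AQA against WT and DQD. The design text names WT and F191G against vector as the comparisons made, so AQA against vector was not among those it lists. Each gene value is a deposited log2 value of a single-colour Affymetrix array, 1 unit being a doubling, and all 19297 genes with a probe set of a single symbol were tested.

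Twist1 is a basic helix-loop-helix (bHLH) transcription factor that dimerises with E proteins or with itself and binds E-box sequences. It is known for driving epithelial-mesenchymal transition in development and for its part in the spread of carcinomas, including those of the prostate. The labels give no meaning for the letters AQA. In published work on Twist1 in prostate cancer cells, AQA denotes alanines in place of the threonine and serine that flank a glutamine in the bHLH domain, which removes their hydroxyl groups and so prevents their phosphorylation. In the DQD form both are replaced by aspartate, and F191G changes a phenylalanine of the Twist box, the transactivation region at the carboxyl end.

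All groups share the Myc-CaP background, transfection, selection and growth to confluence, and total RNA was taken from whole cultures. The vector, its promoter and the number of selected clones are not stated by the labels. The letters A, B and C are not said to be separate cultures, so p-values reflect variation among arrays, some of which may be technical. In both groups arrays A and B were in labelled batch A and array C in batch B, and batch was a term in the model. Pairwise correlations were 0.9968 to 0.9981 within AQA, 0.9966 to 0.998 within VEC and 0.9946 to 0.9976 between them. WT replicate A stood apart, with a correlation as low as 0.975, and it touches the present comparison only through the shared spread. Of 12 prostate luminal markers 10 were measured, and 0 passed a limma adjusted p under 0.05. In AQA minus VEC 2 were above 0 and 8 below, where 62% of all genes were below. At an unadjusted p under 0.05, 1 was higher (10%) and 3 lower (30%), beside 6.83% and 8.87% of all genes. The largest difference was that of Krt19, at -2.01. Krt8 and Krt18, keratins of simple epithelium, differed by -0.53 and -0.22 (limma adjusted p = 0.323 and 0.167). Hoxb13, a homeobox factor of prostate epithelium, averaged 7.20 in VEC and 7.85 in AQA (adjusted p = 0.0629). The level of Cdh1, which encodes the epithelial adhesion protein E-cadherin, was low at 5.66 ± 0.05 (SD, n = 3) in VEC, below the array medians of 6.31 to 6.42, while that of Vim, which encodes the mesenchymal filament vimentin, was 12.41 ± 0.03.

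Twist1 itself read 6.45, 6.71 and 6.13 on VEC arrays A, B and C and 6.87, 6.41 and 6.75 on the AQA arrays. The groups overlapped, since AQA replicate B lay below VEC replicates A and B. The difference was 0.25 (SE 0.147, limma adjusted p = 0.438), with 0.06 within batch A and 0.63 within batch B. The probe set therefore did not separate the AQA arrays from the vector arrays, and the labels were not checked by it. Which region of the transcript the probes read was not examined, and the design text mentions a normalization by Twist1 expression whose form is not stated.

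In AQA cells 99 genes rose and 71 fell against vector, with Ifit3, an interferon-induced gene, rising most and Krt15, a basal keratin, falling most. Together these 170 genes are 0.881% of the genes tested (0.513% higher, 0.368% lower). A gene is called changed where the limma p-value, adjusted by the Benjamini-Hochberg method over all genes, is under 0.05. At an unadjusted p under 0.05 there were 3030 genes (15.7%), of which 1318 were higher (6.83%) and 1712 lower (8.87%). Most changes were small: 9 genes rose and 3 fell at least 2-fold, the smallest called difference was 0.255, and the median difference of all genes was -0.037. The AQA and VEC arrays did not overlap in 25.8% of all genes tested, and the difference was below 0 in 62% of them. Among the called genes AQA replicate B was the AQA array nearest to vector in 130 of 170. The count depended on single arrays. It was 32 without VEC replicate A, 1 without AQA replicate A, and 0 without AQA replicate C or VEC replicate C, where limma left 2218, 1791 and 1913 genes at an unadjusted p under 0.05 in the last 3 cases. Without AQA replicate B it was 212 and without VEC replicate B 219. Without AQA replicate A, AQA replicate C or VEC replicate C no member of any gene list below was called. With array medians set equal 92 genes rose and 42 fell, and a model with Twist1 level as covariate called 3 genes, none of them among the 24 largest changes.

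**Figure D1:**
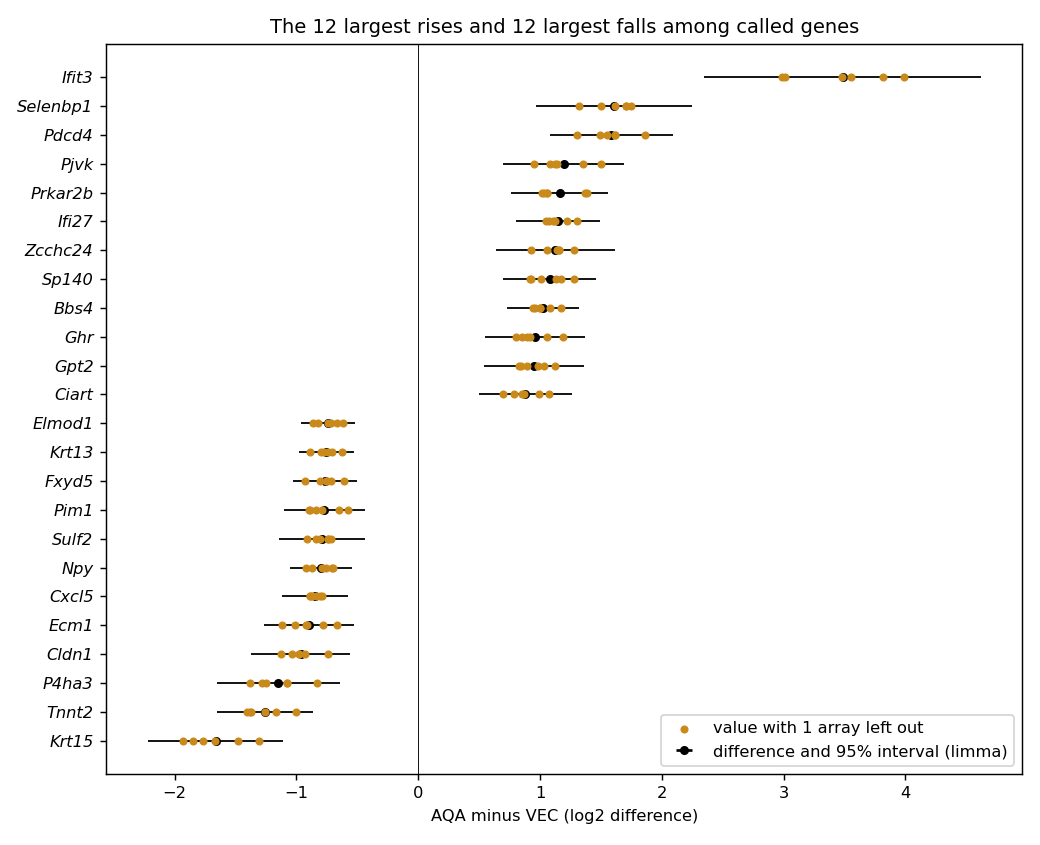
Difference in log2 value, AQA minus VEC, for the 12 called genes that rose most and the 12 that fell most. Black points are the fitted differences with 95% limma intervals, and orange points are the values with 1 array of AQA or VEC left out. Ifit3 stands farthest right at 3.49 and Krt15 farthest left at -1.66. No point crosses 0, but the genes were chosen as the largest called changes and their AQA and VEC arrays do not overlap.

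Interferon-response genes held the largest rise of a single gene, that of Ifit3. These genes are switched on when cells sense foreign or misplaced nucleic acid and interferon receptors signal through STAT and IRF factors, and the Ifit proteins among their products bind RNA and limit translation. Of 51 measured members 3 rose (Ifit3, Ifi27 and Ifit2) and 0 fell, beside 0.513% and 0.368% of all genes. At an unadjusted p under 0.05, 11 were higher (21.6%) and 1 lower (1.96%), beside 6.83% and 8.87%. The median of the list was 0.30, beside -0.037 for all genes. Ifit3 read 4.40, 4.90 and 3.52 on VEC arrays A, B and C and 8.70, 6.81 and 7.77 on the AQA arrays. Every AQA array lay above every VEC array, by 1.91 between the closest 2. The fitted difference was 3.49 (SE 0.525, limma adjusted p = 0.0176), or 11.2-fold, with 3.10 within batch A and 4.25 within batch B. The VEC values lay below the array medians and may be background, so the fold is uncertain. Ifit3b, a near-identical neighbouring copy whose transcripts the probes may not separate, averaged 2.92 in VEC and 5.02 in AQA (difference 2.10, adjusted p = 0.0629).

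Ifi27, which encodes a small mitochondrial membrane protein induced by interferon, rose from 7.38, 6.93 and 6.92 to 8.29, 8.27 and 8.10 (difference 1.15, SE 0.158, limma adjusted p = 0.0123). Its 3 AQA values lay close together, unlike those of Ifit3. Ifit2, another Ifit family member, rose from 7.97, 8.03 and 7.95 to 8.69, 8.43 and 8.54 (difference 0.57, SE 0.103, adjusted p = 0.0307). Sp140, a nuclear body protein of the bromodomain family, rose from 3.98, 4.04 and 3.63 to 5.10, 4.58 and 5.22 (1.08, adjusted p = 0.0231), and its levels were below the array medians on every array of both groups.

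The list as a whole did not move evenly over the arrays. Its mean level was 6.11, 5.63 and 5.48 on VEC arrays A, B and C and 6.73, 5.82 and 5.91 on the AQA arrays, so array A was the highest of each group and AQA replicates B and C lay below VEC replicate A. AQA replicate A was the highest AQA array for 47 of the 51 genes (92.2%), against 31.9% of all genes tested. Without AQA replicate A the list median was -0.043, and no member was called. Ifit3 still differed by 2.99 without that array. The part of AQA replicate A in the list's shift was not tested beyond these values.

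The promoters of Ifit3 and Ifit3b are shown because their 2 copies of the core of the interferon-stimulated response element, to which IRF and STAT complexes bind, accompany the largest rise. The motif searched was GAAANNGAAA on both strands, in RefSeq promoters (build GRCm38.p6) that run from 250 bases before to 50 bases after the start. Capitals mark the motif, which here reads on the opposite strand to the gene. Ifit3 lies at chr19:34583279-34583578 and Ifit3b at chr19:34607707-34608006, both on the plus strand. In Ifit3 the marked stretches begin at -156 and -122 from the start, and in Ifit3b at -188 and -154.
Ifit3: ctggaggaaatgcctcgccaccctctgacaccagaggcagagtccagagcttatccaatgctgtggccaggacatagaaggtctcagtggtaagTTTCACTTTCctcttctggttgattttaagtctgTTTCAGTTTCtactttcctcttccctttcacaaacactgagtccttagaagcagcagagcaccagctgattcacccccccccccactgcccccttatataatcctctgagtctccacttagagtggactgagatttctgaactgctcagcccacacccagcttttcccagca
Ifit3b: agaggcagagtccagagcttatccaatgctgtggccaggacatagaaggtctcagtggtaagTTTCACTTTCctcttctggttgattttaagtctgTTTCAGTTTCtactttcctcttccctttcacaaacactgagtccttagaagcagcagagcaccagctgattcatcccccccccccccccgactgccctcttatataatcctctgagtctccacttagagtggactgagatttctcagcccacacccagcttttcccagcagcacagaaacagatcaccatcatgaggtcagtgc
The motif is present in the promoters of 17 of 39 interferon-list genes with a RefSeq promoter (43.6%) and of 3.90% of all 15161 tested genes with one. Among called genes it is present in 3.57% of those higher and 1.79% of those lower in AQA. The 2 RefSeq promoters of Ifit2 hold 0 copies, and Ifi27 has none in the table. The printed promoters were chosen after the matches were seen.

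Pdcd4 and Selenbp1 were also among the largest rises. Pdcd4, a tumour suppressor that blocks the translation initiation helicase eIF4A, read 7.18, 7.77 and 6.80 on the VEC arrays and 8.76, 8.76 and 8.98 on the AQA arrays. The groups were 0.99 apart at their closest, and the rise was 1.58 (SE 0.233, limma adjusted p = 0.0151), or 3.00-fold. Selenbp1, a selenium-binding methanethiol oxidase, rose from 7.10, 7.19 and 6.46 to 8.74, 8.34 and 8.51 (1.61, SE 0.298, adjusted p = 0.0329). In both genes VEC replicate C was the lowest array. Pdcd4 was the only member of the 40 measured p53 targets and cell cycle inhibitors that was called, beside 0.881% of all genes. At an unadjusted p under 0.05 that list held 12 members higher (30%) and 4 lower (10%), beside 6.83% and 8.87% of all genes. Its median was 0.10. The FoxO and p53 target Sesn3, a stress-induced mTORC1 inhibitor, averaged 7.14 in VEC and 7.74 in AQA (adjusted p = 0.0629). Rb1, the retinoblastoma pocket protein that holds E2F factors in check, averaged 8.05 and 8.56 (adjusted p = 0.0709), and Gadd45a, a DNA damage-induced growth arrest gene, 6.68 and 7.18 (adjusted p = 0.0833).

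**Figure D2:**
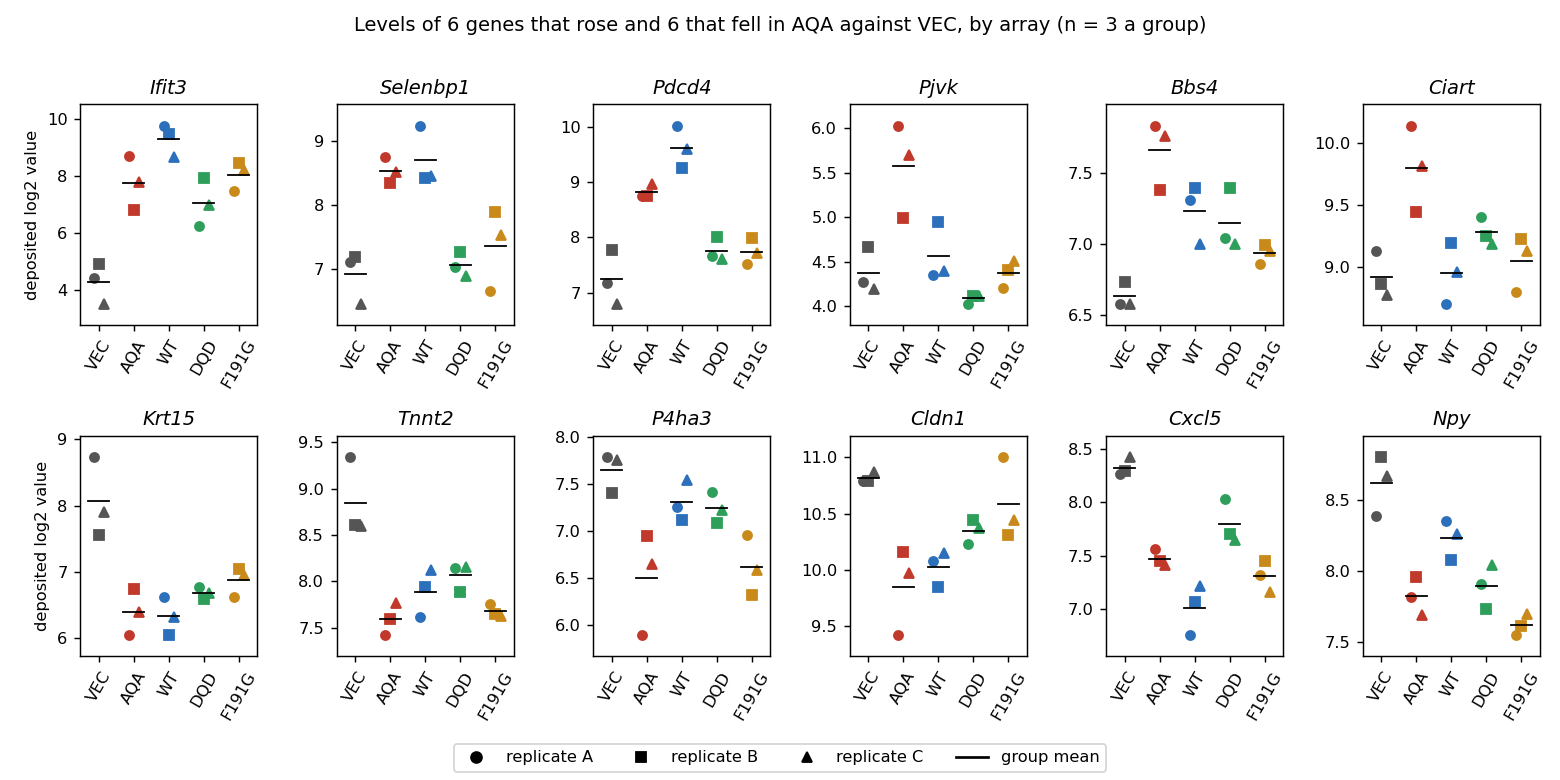
Deposited log2 value of 6 genes that rose and 6 that fell in AQA against VEC, on each of the 15 arrays. Circles, squares and triangles are replicates A, B and C and lines are group means (n = 3). For Ifit3, AQA lies between 6.81 and 8.70 and VEC between 3.52 and 4.90, and for Krt15 AQA lies between 6.05 and 6.75 and VEC between 7.56 and 8.73.

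Pjvk encodes pejvakin, a gasdermin-family protein linked to peroxisomes and hearing. It read 4.27, 4.67 and 4.19 on the VEC arrays and 6.03, 4.99 and 5.70 on the AQA arrays, a rise of 1.19 (SE 0.228, limma adjusted p = 0.0359). The gap came down to 0.32 between AQA replicate B and VEC replicate B. All these values lay below the array medians and may hold background. Prkar2b, a regulatory subunit of protein kinase A, rose from 6.09, 6.74 and 6.18 to 7.69, 7.07 and 7.72 (1.16, adjusted p = 0.0231). Zcchc24, a zinc-finger protein of the CCHC type, rose from 7.29, 7.55 and 6.94 to 8.52, 8.31 and 8.33 (1.13, adjusted p = 0.0406). Ghr, the growth hormone receptor, rose from 6.33, 6.60 and 6.30 to 7.57, 6.92 and 7.62 (0.96, adjusted p = 0.0398). In Ghr and Prkar2b AQA replicate B was again the lowest of its group. Gpt2, the mitochondrial alanine transaminase, rose from 7.71, 7.81 and 7.46 to 8.84, 8.30 and 8.71 (0.95, adjusted p = 0.0398).

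Several rising genes encode parts of the primary cilium, the sensory projection that intraflagellar transport builds and that cells resorb when they divide. Of 64 measured members of a cilium list 5 rose and 0 fell, beside 0.513% and 0.368% of all genes. At an unadjusted p under 0.05, 19 were higher (29.7%) and 0 lower, beside 6.83% and 8.87%. The list was drawn up after the called genes were seen, so its counts are a description. Bbs4, a subunit of the BBSome that carries cargo in cilia, read 6.58, 6.73 and 6.58 on the VEC arrays and 7.83, 7.38 and 7.76 on the AQA arrays (1.03, SE 0.136, limma adjusted p = 0.0123). Wdr19, a subunit of the retrograde transport complex IFT-A, rose from 5.97, 6.14 and 5.79 to 6.91, 6.66 and 6.94 (0.87, SE 0.11, adjusted p = 0.0123). The lowest AQA array stood 0.65 above the highest VEC array for Bbs4 and 0.52 for Wdr19. Ttc21b, another IFT-A subunit, rose by 0.36, Ift74, an IFT-B subunit, by 0.46, and Kifap3, the adaptor of the anterograde kinesin-2 motor, by 0.35, all with an adjusted p of 0.0483. With array medians set equal, 2 of the 5 were called. The number called was 2 without VEC replicate A, 7 without AQA replicate B and 6 without VEC replicate B.

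Circadian clock genes have a feedback loop that turns on CLOCK and BMAL1 binding to E-boxes. Of 23 measured members 2 rose, counting the probe set kept for Ciart, and 0 fell, beside 0.513% and 0.368% of all genes. At an unadjusted p under 0.05, 7 were higher (30.4%) and 4 lower (17.4%), beside 6.83% and 8.87%. The probe set kept for Ciart, a repressor of CLOCK-BMAL1, read 9.13, 8.87 and 8.78 on the VEC arrays and 10.14, 9.45 and 9.82 on the AQA arrays (0.88, SE 0.175, limma adjusted p = 0.0398). All AQA arrays lay above all VEC arrays. A second, dimmer probe set listed for Ciart differed by 0.79 and was not called (adjusted p = 0.125 over all probe sets). The genome position that each of these probe sets reads was not examined. The called values may therefore not measure Ciart. A rise of Ciart is not established, though it is counted here among the members that rose. Cry1, a core repressor of the loop, rose from 7.37, 7.33 and 7.25 to 7.70, 7.56 and 7.72 (0.34, SE 0.0669, adjusted p = 0.0391). Nr1d1, the repressor REV-ERB alpha, averaged 10.12 in VEC and 9.54 in AQA (-0.58, adjusted p = 0.0872), and Rora, its activating counterpart, 6.45 and 6.95 (adjusted p = 0.127). Clock gene levels depend on the time of harvest, which the labels do not state and which was not tested. Without VEC replicate B no clock gene was called (limma), while 2913 genes of all kinds kept an unadjusted p under 0.05.

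The promoters of Ciart and Cry1 are shown because the clock E-box CACGTG, marked in capitals, occurs 3 times in Ciart (starting at -116, -58 and -44) and 1 time in Cry1 (at -60). Whether Ciart itself rose is uncertain, since the called probe set may not measure it. Ciart lies at chr3:95882179-95882478 and Cry1 at chr10:85185005-85185304 of GRCm38.p6, both on the minus strand and printed in the direction of the gene.
Ciart: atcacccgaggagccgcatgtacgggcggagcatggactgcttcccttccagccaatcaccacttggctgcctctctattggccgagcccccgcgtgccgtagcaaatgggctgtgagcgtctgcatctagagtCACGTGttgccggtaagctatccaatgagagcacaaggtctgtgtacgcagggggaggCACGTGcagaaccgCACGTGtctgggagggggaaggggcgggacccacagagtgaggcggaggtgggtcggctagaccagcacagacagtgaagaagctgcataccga
Cry1: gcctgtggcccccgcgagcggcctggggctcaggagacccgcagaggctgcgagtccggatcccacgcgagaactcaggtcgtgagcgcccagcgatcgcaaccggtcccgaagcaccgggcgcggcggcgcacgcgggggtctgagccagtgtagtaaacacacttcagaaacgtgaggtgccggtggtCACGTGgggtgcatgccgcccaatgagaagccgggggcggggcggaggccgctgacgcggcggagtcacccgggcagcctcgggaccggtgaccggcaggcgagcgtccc
CACGTG reads the same on both strands. It is present in 25% of clock-list promoters (5 of 20) and in 9.56% of all tested genes with a promoter. The wider E-box CANNTG, which includes CACGTG and the form CATATG, is present in 71.3% of all promoters, in 69% of the 84 called genes higher in AQA with a promoter and in 80.4% of the 56 lower. CATATG is present in 3.22%, 1.19% and 1.79% of the same sets.

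Among keratins every call was a fall. Keratins form the intermediate filaments of epithelial cells, with different pairs in basal, luminal and stratified layers. Of 45 measured keratin genes 3 fell (Krt15, Krt13 and Krt23) and 0 rose, beside 0.368% and 0.513% of all genes. At an unadjusted p under 0.05, 13 were lower (28.9%) and 0 higher, beside 8.87% and 6.83%. Of the 45 differences 41 were below 0, beside 62% of all genes, with a median of -0.11. Krt15, a keratin of basal cells, read 8.73, 7.56 and 7.90 on the VEC arrays and 6.05, 6.75 and 6.40 on the AQA arrays. The groups did not overlap, the fall was -1.66 (SE 0.258, limma adjusted p = 0.021), or 3.17-fold, and it was -1.75 within batch A and -1.49 within batch B. Krt13, a keratin of stratified mucosa, fell from 7.34, 6.84 and 7.12 to 6.26, 6.37 and 6.41 (-0.76, adjusted p = 0.0123). Krt23 fell from 5.62, 5.81 and 5.54 to 5.02, 4.91 and 5.17 (-0.62, adjusted p = 0.0215).

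The keratin with the largest difference was not called. Krt19, a keratin of luminal and ductal cells, read 10.28, 7.15 and 8.42 on the VEC arrays and 6.30, 6.99 and 6.52 on the AQA arrays. The VEC arrays alone spanned 3.13, and the difference of -2.01 had an adjusted p of 0.0901 in limma. Krt6a, a keratin of activated and wounded epithelium, averaged 8.03 in VEC and 6.63 in AQA (adjusted p = 0.0584). VEC replicate A was the highest array for Krt15, Krt13, Krt19 and Krt6a, and without it 2 keratins were called. Without VEC replicate B the number was 8.

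**Figure D3:**
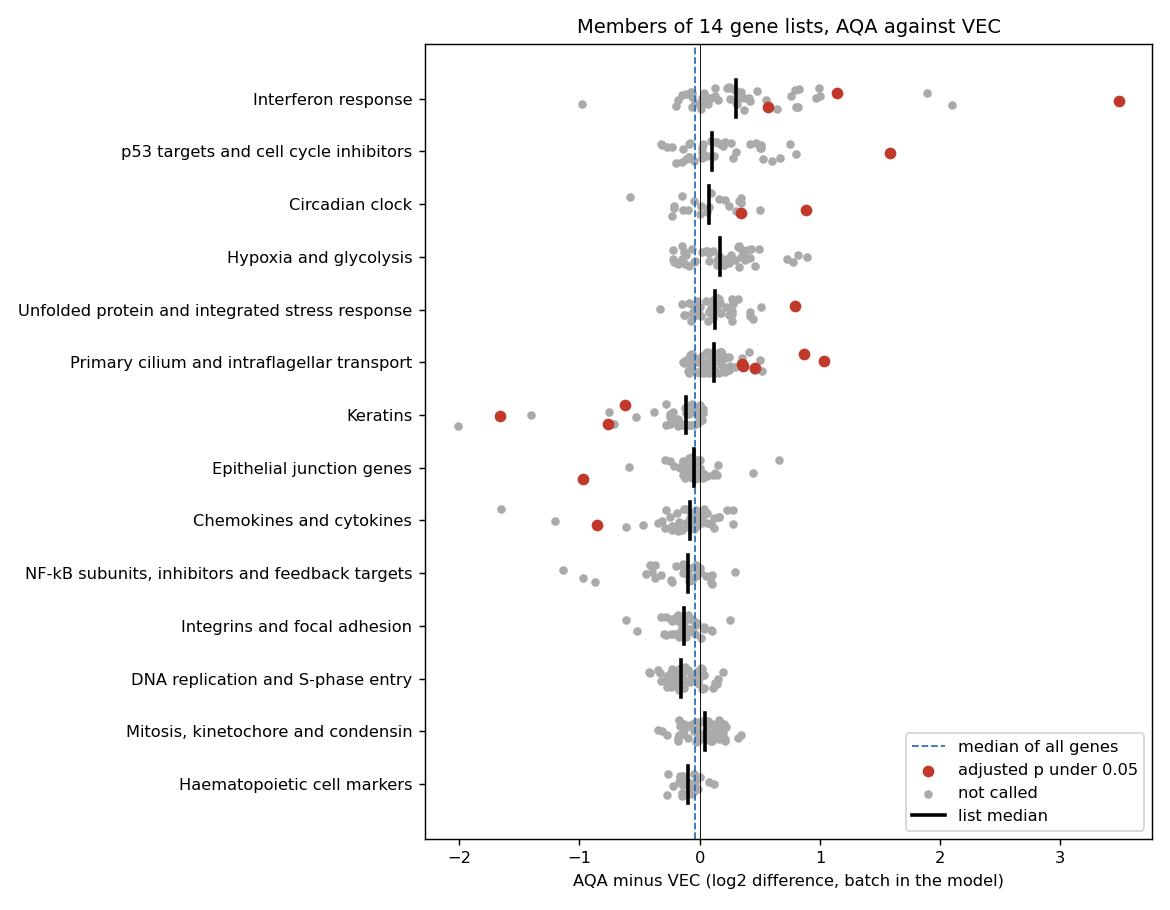
Log2 difference AQA minus VEC of each measured member of 14 gene lists. Red points are genes called by limma, grey points are the others, black bars are list medians and the dashed line is the median of all genes (-0.037). The interferon list is spread widest, with Ifit3 at 3.49 and a median of 0.30, and 41 of 45 keratins lie below 0.

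Among the other large falls were Tnnt2, P4ha3, Cldn1, Ecm1 and Sulf2. Tnnt2, the troponin T of heart muscle, read 9.34, 8.61 and 8.60 on the VEC arrays and 7.42, 7.59 and 7.77 on the AQA arrays (-1.26, SE 0.183, limma adjusted p = 0.0147). The groups were 0.83 apart at their closest. P4ha3, a collagen prolyl hydroxylase subunit, fell from 7.78, 7.40 and 7.75 to 5.89, 6.94 and 6.65 (-1.15, adjusted p = 0.0422). Cldn1, a claudin that seals tight junctions, fell from 10.79, 10.79 and 10.87 to 9.42, 10.16 and 9.97 (-0.97, adjusted p = 0.0391), where AQA replicate A was lowest. Ecm1, a secreted matrix glycoprotein, fell from 10.49, 9.64 and 10.02 to 8.92, 9.36 and 9.17 (-0.90, adjusted p = 0.0353). Sulf2, an extracellular sulfatase that trims heparan sulfate, fell from 10.20, 10.06 and 10.03 to 9.17, 9.53 and 9.22 (-0.79, adjusted p = 0.0426). All of these AQA values lay below the lowest VEC value of the gene. Fxyd5, or dysadherin, a sodium pump regulator that lowers cell adhesion, fell by 0.77 (adjusted p = 0.0231), and Elmod1, a GTPase-activating protein for Arf-family GTPases, by 0.74 (adjusted p = 0.0123).

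Of all genes tested 0.881% were called, beside the list counts that follow. Cldn1 was the only one of 48 epithelial junction genes called (median -0.053). Ecm1 was the only one of 58 collagens, laminins and matrix proteins (median -0.091), of which 51 were below 0, beside 62% of all genes. Of 43 integrin and focal adhesion genes 0 were called by limma (median -0.13). At an unadjusted p under 0.05, 11 were lower (25.6%) and 1 higher (2.33%), beside 8.87% and 6.83% of all genes. Itga2, the collagen-binding integrin alpha 2, averaged 6.07 in VEC and 5.55 in AQA (adjusted p = 0.0602), and Itga5, the fibronectin receptor alpha chain, 10.48 and 9.87 (adjusted p = 0.111). Among 47 matrix proteases and inhibitors 1 rose, Adamts9, a secreted metalloprotease that cleaves proteoglycans, from 7.76, 8.02 and 7.66 to 8.65, 8.21 and 8.61 (0.68, SE 0.123, limma adjusted p = 0.0312). Its 6 probe sets gave differences of 0.43 to 0.88.

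Among chemokines and NF-kB genes 1 passed the test, where 0.881% of all genes did. Cxcl5, a chemokine that draws neutrophils through CXCR2, read 8.26, 8.29 and 8.42 on the VEC arrays and 7.56, 7.45 and 7.41 on the AQA arrays. The spread within each group was small beside the fall of -0.85 (SE 0.124, limma adjusted p = 0.0147). It was the only one of 50 chemokines and cytokines called. Of these 37 were below 0 (62% of all genes were), and the median was -0.079. At an unadjusted p under 0.05, 12 were lower (24%) and 2 higher (4%), beside 8.87% and 6.83% of all genes. Cxcl2, another CXCR2 ligand and NF-kB target, averaged 8.45 in VEC but read 6.12, 7.65 and 6.64 on the AQA arrays, and was not called (-1.65, adjusted p = 0.175). Of 32 NF-kB subunits, inhibitors and feedback targets 0 were called by limma and 24 were below 0. At an unadjusted p under 0.05, 7 were lower (21.9%) and 1 higher (3.12%), beside the same shares of all genes. Nfkbid and Cyld, an atypical IkB and a deubiquitinase that restrains the pathway, differed by -0.45 and -0.33 (adjusted p = 0.088 and 0.0985). Pim1, a serine kinase induced by cytokines that cooperates with Myc, fell from 9.96, 9.51 and 9.70 to 8.59, 9.20 and 9.07 (-0.77, adjusted p = 0.0398). Npy, neuropeptide Y, fell from 8.39, 8.80 and 8.67 to 7.82, 7.96 and 7.69 (-0.80, adjusted p = 0.0147).

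Hypoxia and glycolysis genes, many of them targets of the HIF factors, showed small differences in the upward direction and no probe set kept for the list was called. Of 47 measured members limma called 0, but 19 were higher (40.4%) and 4 lower (8.51%) at an unadjusted p under 0.05, beside 6.83% and 8.87% of all genes, and the median was 0.17. Pdk1, the kinase that shuts pyruvate out of mitochondria, read 7.52, 7.53 and 7.38 on the VEC arrays and 8.70, 7.85 and 8.54 on the AQA arrays (0.89, adjusted p = 0.0664). Bnip3l, a mitophagy receptor, averaged 11.44 and 11.87 (adjusted p = 0.0589). Its second, dimmer probe set differed by 0.44 and passed over all probe sets (limma adjusted p = 0.0447), where the first had 0.0625. The genome position that either probe set reads was not examined, so the kept values may not measure Bnip3l. Kdm3a, a histone demethylase induced by HIF, averaged 8.29 and 8.68 (adjusted p = 0.0668). AQA replicate A was the highest AQA array for 32 of the 47 genes (68.1%), beside 31.9% of all genes tested. AQA replicate B was the lowest for 28 (59.6%), beside 32%. Without AQA replicate B limma called 6 members, all higher. The core of the hypoxia response element, ACGTG on either strand, which overlaps CACGTG, is present in 65.8% of the list's promoters (25 of 38) and in 24.5% of all.

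**Figure D4:**
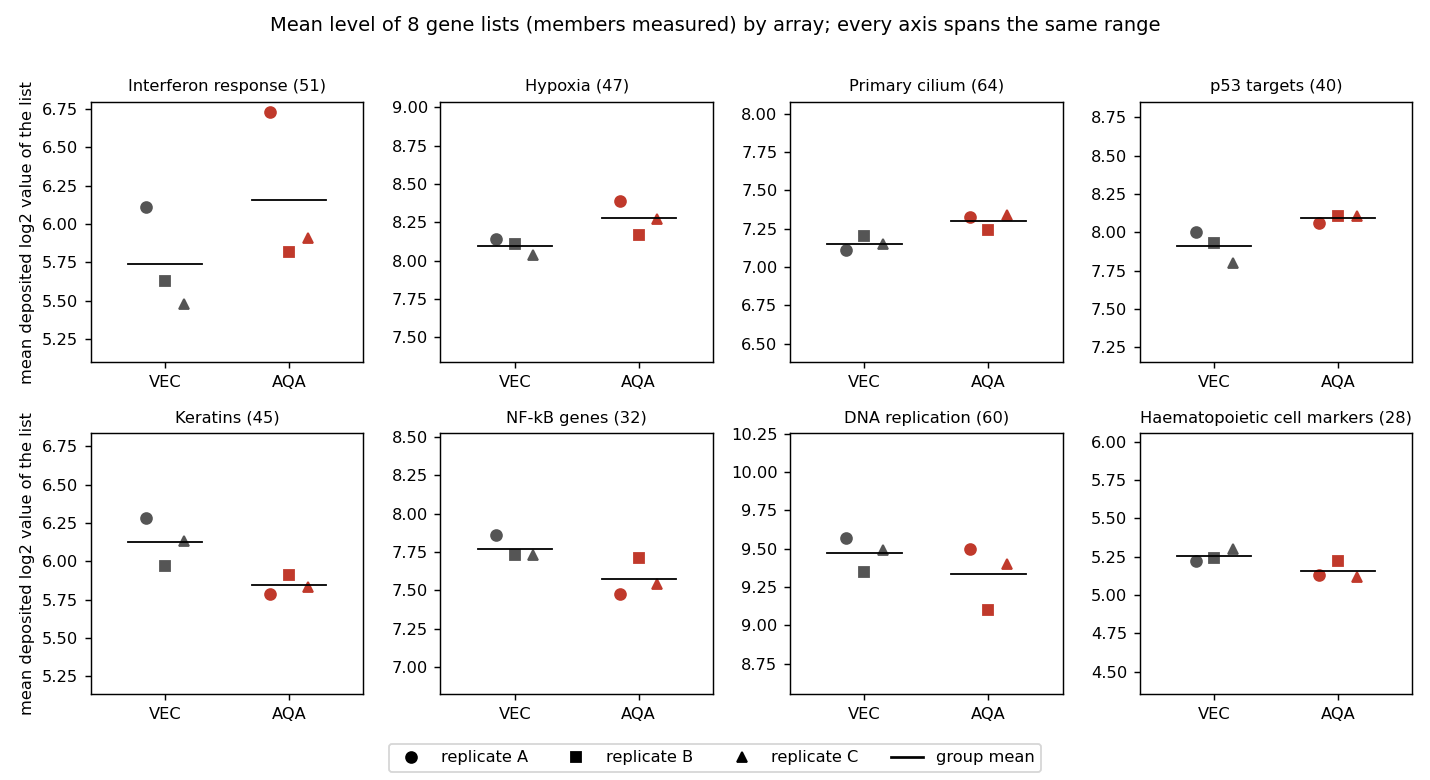
Mean deposited log2 value of the measured members of 8 gene lists on each VEC and AQA array. Circles, squares and triangles are replicates A, B and C, lines are group means, the number of members stands in brackets and each axis spans the same range. Array A is highest in both groups for the interferon list (6.11 in VEC, 6.73 in AQA), and array B is lowest in both for DNA replication (9.35 in VEC, 9.10 in AQA).

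Growth and stress genes outside these lists were also called, where limma called 0.513% of all genes higher and 0.368% lower. Of 76 growth factors and receptor tyrosine kinases 3 rose: Vegfb, a ligand of VEGF receptor 1, by 0.42, Kitl, the ligand of the Kit receptor, by 0.42, and Ddr2, a collagen receptor kinase, by 0.40 (limma adjusted p = 0.0351, 0.0359 and 0.0391). Cth, the transsulfuration enzyme that makes cysteine and a target of ATF4, rose from 7.84, 7.99 and 7.59 to 8.72, 8.40 and 8.68 (0.79, SE 0.105, adjusted p = 0.0123). It was the only one called among 50 unfolded protein and integrated stress response genes. At an unadjusted p under 0.05, 8 of them were higher (16%) and 1 lower (2%), beside 6.83% and 8.87% of all genes. Ctso, a lysosomal cysteine protease, rose from 5.05, 4.96 and 5.00 to 5.74, 5.47 and 5.74 (0.65, adjusted p = 0.0254), alone among 51 lysosome and autophagy genes. Aldh1a3, which makes retinoic acid, was nearly constant within groups, at 7.56, 7.56 and 7.59 on the VEC arrays and 7.03, 7.0 and 6.97 on the AQA arrays (-0.58, SE 0.0778, adjusted p = 0.0123). It was the only one of 45 androgen response and prostate genes called. Lfng, a glycosyltransferase that tunes Notch receptors, fell by 0.43 (adjusted p = 0.0391), 1 of 61 Wnt and Notch genes, and Hoxc12 fell by 0.31 (adjusted p = 0.0483), 1 of 43 Hox genes and cofactors.

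Cell division and ribosome genes gave no calls in limma, which called 0.881% of all genes. At an unadjusted p under 0.05, 6.83% of all genes were higher and 8.87% lower. DNA replication genes (60 measured) had a median of -0.16 with 0 higher and 1 lower at an unadjusted p under 0.05, and the median was -0.020 without AQA replicate B. Mitosis genes (60 measured) had a median of 0.045, with 1 higher and 0 lower, and that median lay between -0.096 and 0.21 as single arrays were left out. AQA replicate B was the lowest AQA array for 59 of the 60 replication genes and all 60 mitosis genes, against 32% of all genes tested. VEC replicate B also had the lowest mean of its group for both lists (9.35 and 9.14). The reason was not tested. Myc network and nucleolar genes (65 measured) had a median of -0.13, with 1 higher and 10 lower. Rrn3, the initiation factor of RNA polymerase I, averaged 10.58 in VEC and 10.37 in AQA (adjusted p = 0.135). Myc itself averaged 9.86 and 9.66 (adjusted p = 0.539). Cholesterol and fatty acid synthesis genes (42 measured) had 1 higher and 8 lower, among them Dhcr7, the last enzyme of cholesterol synthesis, at 8.24 and 7.93 (adjusted p = 0.0652). In the lists of TGF-beta and BMP signalling (53 measured), Nrf2 and antioxidant genes (49), plasma proteins (42) and antigen presentation (26), limma also called 0, with 2 higher and 2 lower, 3 and 4, 0 and 6, and 3 and 2 at an unadjusted p under 0.05.

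Among bHLH factors, Id proteins and genes of epithelial-mesenchymal transition, 2 were called, beside 0.881% of all genes. Of 38 measured bHLH factors and Id proteins, a list not limited to partners of Twist1, 1 fell. It was Mitf, a leucine-zipper factor of pigment cells, from 7.88, 7.75 and 7.77 to 7.47, 7.49 and 7.45 (-0.33, SE 0.0661, limma adjusted p = 0.0398). The second, very dim probe set of Mitf differed by 0.09. Tcf3, the E protein E2A, averaged 9.86 in VEC and 9.76 in AQA, and Twist2, the closest relative of Twist1, 9.03 and 8.95 (adjusted p = 0.542 and 0.596). Of 39 transition factors and mesenchymal markers 1 rose, Ddr2, from 5.40, 5.72 and 5.58 to 6.05, 5.93 and 5.94. In that list 33 were below 0 (median -0.12), beside 62% of all genes. Cdh1 differed by -0.052 and Cdh2, which encodes N-cadherin, by -0.12 (adjusted p = 0.715 and 0.452). Vim differed by -0.009 and Fn1, fibronectin, by -0.12 (adjusted p = 0.977 and 0.333). The repressors Snai1, Snai2, Zeb1 and Zeb2 differed by -0.090, -0.13, -0.069 and -0.036, with adjusted p-values from 0.522 to 0.784. Hoxa9 differed by -0.089, Id1 by 0.047 and Id2 by -0.087 (adjusted p = 0.7, 0.914 and 0.607).

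No marker of another cell type was called higher in AQA, where 0.513% of all genes were. Of 28 haematopoietic markers limma called 0, and 25 differences were below 0 (median -0.093), beside 62% of all genes. At an unadjusted p under 0.05, 5 were lower (17.9%) and 0 higher, beside 8.87% and 6.83% of all genes. Their mean level ran from 5.22 to 5.30 on the VEC arrays and from 5.12 to 5.22 on the AQA arrays. Of 30 endothelial and fibroblast markers limma also called 0, and 24 were below 0. At the same threshold 1 was higher (3.33%) and 4 lower (13.3%). Mean levels ran from 5.58 to 5.60 on the VEC arrays and from 5.47 to 5.57 on the AQA arrays. Of 25 neural and neuroendocrine markers 1 fell, Npy, and mean levels ran from 5.83 to 5.87 and from 5.75 to 5.77. All these mean levels lay below the array medians of 6.31 to 6.42, and no detection calls were used. With quantile normalization again the medians of the haematopoietic, endothelial and neural lists were -0.051, -0.040 and -0.019. In the reported model they were -0.093, -0.086 and -0.069. Background, normalization, fewer cells of a kind and less RNA per cell cannot be told apart in these bulk cultures.

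Whether a difference belonged to AQA rather than to Twist1 in general was tested by comparing AQA with WT and with DQD. The VEC means are no part of these differences, but all 15 arrays, VEC included, set the shared spread and the batch term, and with only the 6 arrays compared limma called 0 genes against WT (3227 at an unadjusted p under 0.05) and 21 against DQD. Against WT limma called 140 genes (0.726%), 59 higher (0.306%) and 81 lower (0.42%) in AQA, and against DQD 5 genes (0.0259%), 1 higher (0.00518%) and 4 lower (0.0207%). Of the 170 genes called against vector, 4 were also called against WT and 1 against DQD. The 4 were Ciart, by a probe set that may not measure it, and Atp5e, Elfn1 and Snora2b. Atp5e, Elfn1 and Snora2b lie outside the rule for naming genes and were chosen after their values were seen. The probe set kept for Ciart averaged 8.96 in WT, 9.28 in DQD and 9.05 in F191G, beside 9.80 in AQA and 8.92 in VEC, and AQA exceeded WT by 0.85 (SE 0.175, limma adjusted p = 0.0498). The second Ciart probe set gave 0.67 and was not called (limma adjusted p = 0.1 over all probe sets). Atp5e, a subunit of mitochondrial ATP synthase, averaged 8.18 in VEC, 8.18 in WT and 7.84 in AQA (AQA minus WT -0.34, adjusted p = 0.0455), beside 8.24 in DQD and 8.26 in F191G. Elfn1, a synaptic adhesion protein, averaged 8.54, 8.63 and 8.08 (-0.55, adjusted p = 0.0455), beside 8.65 in DQD and 8.56 in F191G. Snora2b, a small nucleolar RNA, averaged 5.97, 5.96 and 6.45 (0.49, adjusted p = 0.0455), but 6.41 in DQD and 6.17 in F191G, and AQA exceeded DQD by 0.038 (adjusted p = 0.881). The counts moved with single arrays: against WT limma called 0 without AQA replicate A, AQA replicate C, WT replicate A or WT replicate C, with 2855 to 4688 genes at an unadjusted p under 0.05, and 1270 and 2411 without AQA replicate B and WT replicate B.

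Pjvk was higher in AQA than in any other form by its values. It read 6.03, 4.99 and 5.70 in AQA against 4.35, 4.95 and 4.40 in WT and 4.03, 4.11 and 4.12 in DQD, so every AQA array lay above every array of both forms, and above 4.21, 4.41 and 4.51 in F191G. The differences of 1.01 from WT and 1.49 from DQD had limma adjusted p-values of 0.0548 and 0.0514 and missed the threshold. P4ha3, Sulf2 and Pim1 were lower in AQA than in WT by 0.81, 0.66 and 0.56 (adjusted p = 0.0668, 0.0552 and 0.0631). They averaged 6.49, 9.31 and 8.95 in AQA and 6.62, 9.21 and 9.57 in F191G, a pair of forms that was not compared by a test. By contrast Ifi27 differed from WT by 0.097, Krt15 by 0.069, Krt13 by 0.070 and Sp140 by 0.047 (adjusted p = 0.754, 0.902, 0.733 and 0.903), which does not show that the forms act alike. Ifit3 averaged 9.29 in WT, 7.76 in AQA and 7.04 in DQD, and AQA was below WT by 1.53 without passing the test (adjusted p = 0.099). Pdcd4 averaged 9.63 in WT, 8.83 in AQA and 7.76 in DQD, and Selenbp1 8.69, 8.53 and 7.06. Neither passed against WT (adjusted p = 0.0688 and 0.78) or DQD (0.108 and 0.094).

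Folh1, which encodes prostate-specific membrane antigen, was lower in AQA than in WT and DQD. It read 8.37, 8.97 and 8.88 in AQA, 9.61, 9.59 and 9.74 in WT and 10.15, 9.88 and 10.02 in DQD. All AQA arrays lay below all WT and DQD arrays, by 0.91 on average from WT (SE 0.158, limma adjusted p = 0.0455) and 1.27 from DQD (SE 0.162, adjusted p = 0.0179). Against vector, at 8.48, 7.92 and 8.22, AQA overlapped and differed by 0.54 (adjusted p = 0.129). Abca1, the cholesterol exporter, averaged 7.84 in AQA, 8.58 in WT and 8.46 in VEC, and AQA was below WT by 0.74 (SE 0.145, adjusted p = 0.0455). Hmox1, heme oxygenase 1, averaged 7.51 in AQA, 7.87 in WT and 7.73 in VEC, with AQA below WT by 0.35 (adjusted p = 0.0455). Fzd2, a Wnt receptor, averaged 8.35 in AQA, 8.69 in WT and 8.13 in VEC, with AQA below WT by 0.34 (adjusted p = 0.0455). Against DQD limma called 0 genes without AQA replicate A, AQA replicate C, DQD replicate A or DQD replicate C, with 1994 to 2791 at an unadjusted p under 0.05, and 2 without DQD replicate B.

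**Figure D5:**
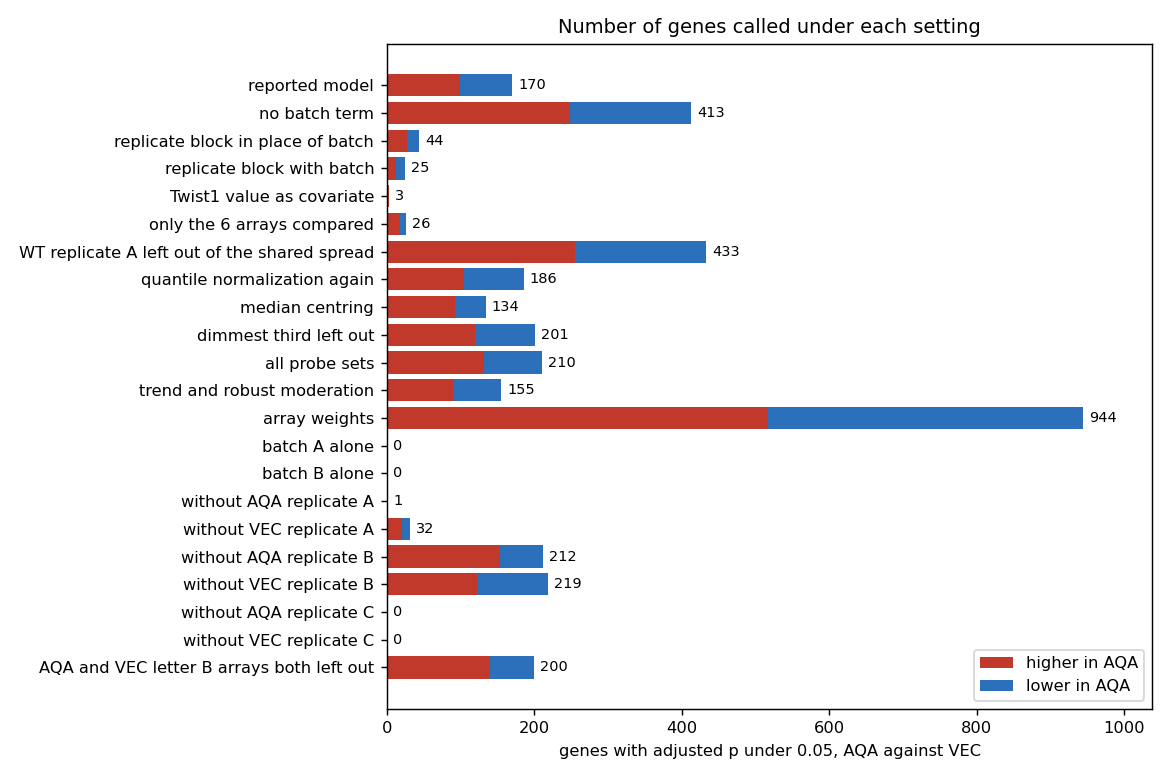
Number of genes called in AQA against VEC, split into higher (red) and lower (blue), in the reported model and under each alternative. The reported model calls 170 genes, array weights 944, and the models of either batch alone or without AQA replicate C or VEC replicate C call 0.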

How the data were processed

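RNA of 15 samples was read on single-colour Affymetrix arrays. The deposited values are on a log2 scale for 23811 probe sets, made with RMA and examined with limma, per the submitters' processing notes (versions not given in the sources used here). RMA corrects background, makes array distributions equal and summarises probes, so a change shared by most genes would not be seen. A normalization by Twist1 expression is named in the design text, and its form and effect on the deposited log2 values are unknown. No detection calls were used, so levels near the bottom of the range (1.41 to 13.62) may be background, and the number of arrays limits precision.

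Of the probe sets, 20852 carried 1 gene symbol, 1440 several and 1519 were not listed. For each gene the brightest probe set by mean over 15 arrays was kept, a choice among several for 846 genes, which left 19297. Group and labelled batch were fixed terms in limma 3.58.1 (R 4.3.3) over all 15 arrays, with 9 residual and 3.93 prior degrees of freedom, and Benjamini-Hochberg adjustment. Fold changes are 2 to the power of the log2 difference. The code was tested on simulated data. Figures were drawn with matplotlib 3.10.9.

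The comparison and the 31 gene lists were chosen with earlier results of these data known, and 1 further list (cilium) after the called genes were seen. Genes were named by a rule: the 12 largest called changes in each direction, the up to 4 members with the smallest p in each list, a set of transition genes, and Twist1. Alternatives covered batch, the replicate letter as a block, the Twist1 value, the arrays in the fit, normalization, dim genes, probe sets, variance moderation, array weights, each batch alone and each array left out. Leaving out array B of both groups was added after seeing the data.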

Additional observations from a re-analysis of the deposited data

Results flagged for a closer look

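Folh1 was lower in AQA than in both other forms tested directly, by -0.91 against WT (SE 0.158, limma adjusted p = 0.0455) and by -1.27 against DQD (SE 0.162, adjusted p = 0.0179), lower on 3 of 3 AQA arrays than on any WT or DQD array. Each of the following is likewise a gene whose effect relative to vector differed between 2 forms, by a direct test of the forms. Against WT, AQA was lower for Abca1 (-0.74, SE 0.145), Fzd2 (-0.34, SE 0.0621) and Hmox1 (-0.35, SE 0.0688), each with an adjusted p of 0.0455, and higher for the probe set kept for Ciart (0.85, SE 0.175, adjusted p = 0.0498). The second Ciart probe set gave 0.67 and was not called (limma adjusted p = 0.1 over all probe sets), and the position each reads was not examined. Against DQD, AQA was higher for Dcps, a scavenger enzyme of messenger RNA caps (0.56, SE 0.0626, adjusted p = 0.0131). It was lower for Atp6v1b2, a subunit of the vacuolar proton pump (-0.63, SE 0.0768, adjusted p = 0.0179), for Dlg5, a scaffold of cell polarity (-0.43, SE 0.0621, adjusted p = 0.0477), and for Gtf2h1, a subunit of the transcription factor TFIIH (-0.54, SE 0.0797, adjusted p = 0.0477). Dcps, Atp6v1b2, Dlg5 and Gtf2h1 fall outside the naming rule and were chosen after their values were seen. Dcps read 10.39, 10.28 and 10.36 in AQA and 9.79, 9.78 and 9.78 in DQD, and Gtf2h1 read 8.53, 8.49 and 8.47 in AQA and 8.97, 9.03 and 9.12 in DQD, so the arrays of the 2 forms did not overlap.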

How the results depend on the processing

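How many genes passed limma's threshold depended on single arrays and on the model. The 24 genes with the largest changes kept their sign under every alternative run, which is no separate support for their direction. They were chosen as the largest called changes. In all 170 called genes the AQA and VEC arrays did not overlap, beside 25.8% of all genes tested, so leaving arrays out had little room to turn a sign. Against VEC (170 genes) the number was 413 without the batch term, 26 with only the 6 arrays compared (13 of them among the 170), 433 with WT replicate A left out of the shared spread, 944 with array weights, 3 with the Twist1 value as covariate and 0 in batch A or B alone (988 and 3329 at an unadjusted p under 0.05). Median centring gave 134, 92 higher and 42 lower, beside 99 and 71. Leaving out 1 array gave 0 to 219, and leaving out array B of both groups, an alternative added after seeing the data, gave 200 (98 shared). Against WT (140 genes) the number was 1501 without batch, 0 with the Twist1 value or only the arrays compared (4659 and 3227 unadjusted), 514 with quantile normalization, 61 with median centring, 832 without the dim genes, 228 over all probe sets, 2843 with array weights, 0 in batch A (1668 unadjusted), 74 in batch B and 0 to 2411 with 1 array left out. Against DQD (5 genes) it was 156 without batch, 21 with only the arrays compared, 162 without WT replicate A, 2 with quantile normalization, 28 with median centring, 16 without the dim genes, 3 over all probe sets, 1670 with array weights, 0 in batch A (1229 unadjusted), 29 in batch B and 0 to 4 with 1 array left out. The cause of these moves was not tested.

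Over all genes the deviations of same-letter arrays correlated by 0, 0.03 and -0.13. Some lists nonetheless followed the letter in both groups. Array A had the highest mean for the interferon list. Array B had the lowest for mitosis (9.14 in VEC, 9.03 in AQA) and DNA replication (9.35 and 9.10). Whether the letters mark pairs was not tested. With the replicate block in place of batch limma called 44, 0 and 3 genes against VEC, WT and DQD (2738, 4463 and 2676 unadjusted), and with block and batch 25, 0 and 0 (2622, 4276 and 2064).

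Values near 0 changed sign for 4 genes. Cdh1 was 0.004 with quantile normalization, 0.023 in batch A and -0.092 to 0.007 with 1 array left out. Vim was 0.004 with median centring, 0.013 with array weights, 0.079 in batch B, 0.034 without array B of both and -0.058 to 0.050 with 1 array left out. Hoxa9 was 0.125 in batch B and -0.174 to 0.007 with 1 array left out, and Id1 was -0.187 without array B of both and -0.144 to 0.21 with 1 array left out.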

Other observations

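Of the 170 called genes, 28 belong to any of the gene lists, so most calls lie elsewhere. The genes below fall outside the naming rule and were picked after their values were seen. Smarca2, an ATPase of the SWI/SNF chromatin remodellers, rose from 9.32, 9.26 and 9.08 to 9.77, 9.79 and 9.86 (0.58, SE 0.109, limma adjusted p = 0.0345), and Rassf4, a Ras-association family member, from 7.75, 8.06 and 7.67 to 8.69, 8.59 and 8.83 (0.88, adjusted p = 0.0275). Apobec3, a cytidine deaminase that restricts retroviruses, rose by 0.43 (adjusted p = 0.0302).

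Gpd1, the cytosolic glycerol-3-phosphate dehydrogenase, fell from 10.35, 10.04 and 10.05 to 9.32, 9.51 and 9.44 (-0.72, SE 0.099, limma adjusted p = 0.0123), while Khk, which phosphorylates fructose, rose by 0.57 and Crot, a peroxisomal carnitine acyltransferase, by 0.50 (adjusted p = 0.0254 and 0.0421). Ndufa9, a subunit of respiratory complex I, fell by 0.32, Coq3, an enzyme of ubiquinone synthesis, by 0.40 and Mrpl36, a mitochondrial ribosomal protein, by 0.50 (adjusted p = 0.0398, 0.0345 and 0.0302). Called genes of mitochondrial proteins went both ways: Atp5e also fell, while Clybl rose by 0.71, Sfxn4 by 0.61 and Gpt2 by 0.95. A shared direction was not tested. Sbsn, suprabasin, a secreted protein of stratified epithelium, fell from 7.27, 7.05 and 7.25 to 6.41, 6.56 and 6.42 (-0.73, adjusted p = 0.0231).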
